A study of Drosophila melanogaster with 8 samples.

Results

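Myc and 7 genes of the nucleolus that act in ribosome production were followed through RNA sequencing of fly intestinal stem cells with mutant or control mitochondrial DNA (mtDNA). The 8 genes, Myc, Fib, Nop56, nop5, Nop60B, Tif-IA, Ns1 and Ns2, were found by name among the 17473 genes of the deposited count table, and all 8 passed the filter on low counts that left 11561 genes for testing. Of the 4 groups, each of 2 libraries, the first carried mutant mtDNA with FOXO knockdown and the second control mtDNA with FOXO knockdown. The third carried mutant mtDNA and the fourth control mtDNA, both without the knockdown. Every group is labelled Drosophila melanogaster intestinal stem cells, the dividing cells that renew the midgut epithelium. FOXO is a transcription factor that insulin signalling holds out of the nucleus, and the series asks what disrupted oxidative phosphorylation does to gene expression and what FOXO contributes. In all groups, per the labels' protocols, fixed tissue was sonicated, and anti-FLAG beads pulled down a tagged poly(A)-binding protein with its RNA. The mtDNA allele, the driver of the tagged protein and of the knockdown, the age of the flies and whether replicates came from separate animals are not given in the sources used here, so p-values measure the spread between these libraries, which may be technical.

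Ribosomes are built in the nucleolus, where RNA polymerase I copies the ribosomal DNA and small nucleolar RNA particles guide chemical changes on the precursor before it is cut and joined to ribosomal proteins. Myc is a transcription factor that drives cell growth in flies largely by raising the expression of the genes of this pathway, and it is needed for the growth of intestinal stem cells. If the supply of ribosomes followed the state of the mtDNA, its messengers would be one place to look. The 8 genes span the steps of the pathway. Tif-IA is the initiation factor that links RNA polymerase I to growth signals. Fib (fibrillarin) is the methyltransferase of the box C/D particles, and Nop56 and nop5 (the fly Nop58) are their paired scaffold proteins. Nop60B is the fly dyskerin, the pseudouridine synthase of the box H/ACA particles. Ns1 and Ns2 are nucleostemin family GTPases, of which Ns1 is known in flies for the release of the large subunit from the nucleolus.

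The libraries fell into 2 classes that bear on every value below. The share of counts on ribosomal RNA (rRNA) genes was 30.8% in mutant replicate 1 and 18.2% in control replicate 1, and 79.4% to 83.8% in the other 6 libraries. The first 2 are called low-rRNA libraries and the other 6 high-rRNA libraries. Total counts were 21133996 to 39327066 per library. Levels are given as CPM, the counts scaled to a common library size, with library sizes adjusted by TMM, which sets the bulk of genes equal between libraries. Each comparison is given from 2 edgeR quasi-likelihood fits, one with a mean for each group alone and one with the library class added as a term. A gene is called where its Benjamini-Hochberg adjusted p over all genes tested is under 0.05. The foxo transcript, a check of the knockdown labels, had 48.1 to 53.1 CPM in the 4 libraries labelled FOXO knockdown, against 66.6 and 61.9 CPM in the high-rRNA and 49.8 and 43.3 CPM in the low-rRNA libraries of the mutant and control groups. All 4 knockdown libraries thus lay below the 2 high-rRNA libraries without knockdown, an order found for 8.9% of all genes tested. With the class term foxo had a log2 difference of -0.28 with control mtDNA (95% interval -0.57 to 0.0029, edgeR adjusted p 0.517) and -0.37 with mutant mtDNA (-0.65 to -0.08, edgeR adjusted p 0.274). As foxo was called in neither background, the groups are named by their labels. Stem and progenitor cell markers were present, with esg at 18.5 to 29.1 CPM and Dl at 6.94 to 34.5 CPM, but so were markers of other gut cells. Jon65Aiv, a protease of enterocytes, had 1693 to 3373 CPM and the muscle myosin Mhc had 102 to 495 CPM, so the values below may include RNA of other cell types. In such material fewer cells of a type and less RNA per cell cannot be told apart.

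Myc (FBgn0262656, chromosome X) had the most counts of the 8. It had 420.1 and 375.9 CPM with mutant mtDNA and labelled FOXO knockdown, 409.2 and 491.8 CPM with control mtDNA and the knockdown, 194.8 and 583.7 CPM with mutant mtDNA alone, and 200.8 and 632.9 CPM with control mtDNA alone. The low values of the last 2 groups were both of low-rRNA libraries, and the high values, of their high-rRNA libraries, lay above all 4 knockdown libraries. Group means were 398.0 ± 31.3, 450.5 ± 58.4, 389.3 ± 275.0 and 416.9 ± 305.5 CPM in the same order (SD, n = 2 each).

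Among the other genes Tif-IA (FBgn0032988, chromosome arm 2L) had 18.3 and 13.6 CPM with mutant mtDNA and labelled knockdown, 26.6 and 21.3 CPM with control mtDNA and the knockdown, 14.6 and 19.9 CPM with mutant mtDNA, and 19.6 and 19.4 CPM with control mtDNA. Both mutant knockdown libraries thus lay below both control knockdown libraries, while mutant and control overlapped without the knockdown. Fib (FBgn0003062, arm 2R) had 4.63 and 3.88 CPM in the mutant knockdown libraries, 4.56 and 5.49 CPM in the control knockdown libraries, 24.3 and 5.58 CPM in the mutant libraries, and 17.6 and 5.97 CPM in the control libraries. Its 2 high values were those of the low-rRNA libraries, and the other 6 libraries held only 67 to 157 Fib counts each.

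The scaffold partners of fibrillarin differed in how they split. Nop56 (FBgn0038964, arm 3R) had 9.74 and 10.2 CPM with mutant mtDNA and labelled knockdown, 14.7 and 12.3 CPM with control mtDNA and the knockdown, 15.2 and 15.4 CPM with mutant mtDNA, and 15.3 and 12.6 CPM with control mtDNA. Both mutant knockdown libraries lay below both control knockdown libraries, an order found for 17.5% of all genes tested. The library class made little difference to Nop56. nop5 (FBgn0026196, arm 2L) had 12.9 and 12.2 CPM with mutant mtDNA and the knockdown, 11.4 and 13.7 CPM with control mtDNA and the knockdown, 30.3 and 17.0 CPM with mutant mtDNA, and 27.2 and 17.5 CPM with control mtDNA. Here all 4 knockdown libraries lay below the 2 high-rRNA libraries without knockdown, an order found for 8.9% of all genes tested. The low-rRNA libraries of the groups without knockdown were higher still.

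Nop60B (FBgn0259937, arm 2R) had 17.8 and 18.7 CPM in the mutant knockdown libraries, 18.8 and 18.0 CPM in the control knockdown libraries, 29.8 and 17.4 CPM in the mutant libraries, and 27.1 and 16.0 CPM in the control libraries. Its 6 high-rRNA libraries lay within 16.0 to 18.8 CPM. Of the nucleostemin genes, Ns1 (FBgn0038473, arm 3R) had 8.64 and 7.76 CPM with mutant mtDNA and labelled knockdown, 6.21 and 8.55 CPM with control mtDNA and the knockdown, 12.9 and 7.40 CPM with mutant mtDNA, and 11.3 and 7.88 CPM with control mtDNA. Ns2 (FBgn0034243, arm 2R) had 13.8 and 14.2 CPM in the mutant knockdown libraries, 12.3 and 15.6 CPM in the control knockdown libraries, 18.1 and 15.2 CPM in the mutant libraries, and 17.5 and 12.04 CPM in the control libraries. For both, mutant and control libraries overlapped in each background.

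**Figure D1:**
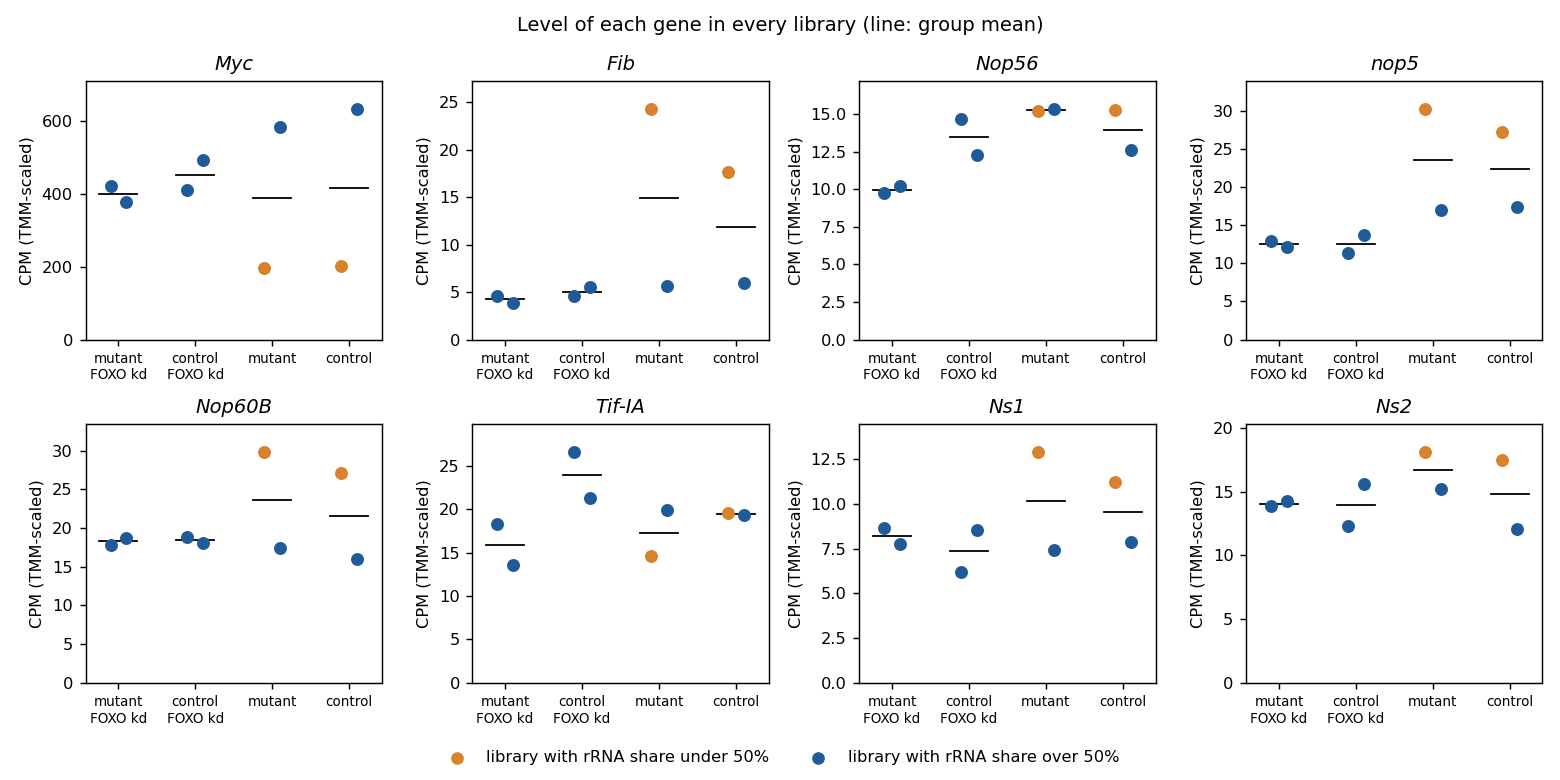
Level of each of the 8 genes in every library, in CPM on TMM-scaled library sizes on a linear axis from 0, with points for libraries, a line for the mean of each group of 2, and "FOXO kd" for labelled FOXO knockdown. The orange low-rRNA libraries, mutant replicate 1 and control replicate 1, are the lowest for Myc (194.8 and 200.8 CPM) and the highest for Fib (24.3 and 17.6 CPM).

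Per kilobase of annotated exon, which allows levels of different genes to be set side by side, Myc had 43.4 ± 3.41 CPM per kb with mutant mtDNA and labelled knockdown, 49.1 ± 6.37 with control mtDNA and the knockdown, 42.5 ± 30.0 with mutant mtDNA and 45.5 ± 33.3 with control mtDNA (SD, n = 2 each). By its mean level per kb it stood at the 95.8th percentile of 11466 genes with an exon length. In the mutant knockdown libraries Tif-IA followed at 7.43 ± 1.55 CPM per kb, then nop5 at 6.92 ± 0.301, Ns2 at 6.29 ± 0.131, Nop56 at 5.71 ± 0.183, Nop60B at 5.35 ± 0.187, Ns1 at 4.33 ± 0.327 and Fib at 3.23 ± 0.400. The 2 libraries of Tif-IA overlapped those of nop5 and Ns2 and lay above those of Nop56. In the control knockdown libraries Tif-IA had 11.2 ± 1.75 CPM per kb, Nop56 7.71 ± 0.979, nop5 6.92 ± 0.922, Ns2 6.24 ± 1.03, Nop60B 5.39 ± 0.169, Ns1 3.90 ± 0.873 and Fib 3.81 ± 0.501. Again Myc and Tif-IA led and Ns1 and Fib came last, with neighbours from Nop56 to Nop60B within 1 or 2 SDs of each other. Without the knockdown the 2 libraries of a group belonged to different classes, and the order changed with the class. Fib, last of the 8 in the high-rRNA libraries at a mean of 3.81 CPM per kb, had 15.9 CPM per kb in the low-rRNA libraries, level with nop5 at 15.9.

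The library class moved most of these genes. The class term is set by the groups without knockdown, which alone hold libraries of both classes. In these groups Myc was lower in the low-rRNA libraries, at 194.8 (mutant) and 200.8 CPM (control), against 583.7 and 632.9 CPM. Its class term, low against high rRNA, was -1.62 on the log2 scale (SE 0.13, edgeR adjusted p 1.82e-06). Fib was higher, at 24.3 and 17.6 against 5.58 and 5.97 CPM, with a class term of 1.84 (SE 0.24, edgeR adjusted p 9.12e-05). Nop60B was higher by 0.77 (edgeR adjusted p 0.00176), nop5 by 0.74 (edgeR adjusted p 0.00465) and Ns1 by 0.66 (edgeR adjusted p 0.0496). Ns2, Nop56 and Tif-IA were not called, with 0.39, 0.13 and -0.22. The 5 of 8 called compare with 30.3% of all genes tested. Myc thus lay on the opposite side from Fib, Nop60B, nop5 and Ns1, and the cause of the split between the libraries was not tested.

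The counts of Myc came from different parts of the gene in the 2 classes. In the annotation used here Myc has 3 exons. Exons 1 and 2 are also annotated as the start of CR44999, a non-coding gene on the same strand, so that 1859 of the 2025 exon bases of CR44999 belong to both genes. Exon 3, which carries the 3′ end of the coding sequence and the 3′ untranslated region, is 1625 bases long in one annotated transcript and 7311 bases in the other. Reads over shared exons appear to have been counted for both genes, since other overlapping genes, such as Hsp22 and CG4456 with 46408 and 46409 counts over all libraries, had nearly the same totals.

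CR44999 had 101.8 and 97.1 CPM with mutant mtDNA and labelled knockdown, 94.4 and 101.9 CPM with control mtDNA and the knockdown, 103.5 and 132.7 CPM with mutant mtDNA, and 112.7 and 111.6 CPM with control mtDNA. It differed little between the classes, by -0.17 on the log2 scale for low against high rRNA (edgeR adjusted p 0.322). The rest of the Myc counts, which fall mostly on exon 3, came to 318.3 and 278.7 CPM in the mutant knockdown libraries, 314.8 and 389.8 CPM in the control knockdown libraries, 91.4 and 451.1 CPM in the mutant libraries, and 88.1 and 521.3 CPM in the control libraries. The class difference of Myc thus lay in the counts outside CR44999.

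As a share, CR44999 counts were 24.2% and 25.8% of Myc counts with mutant mtDNA and the knockdown, 23.1% and 20.7% with control mtDNA and the knockdown, 53.1% and 22.7% with mutant mtDNA, and 56.1% and 17.6% with control mtDNA. For mutant replicate 1 the 95% Wilson interval was 52.2% to 54.0%, and for control replicate 1 it was 55.5% to 56.7%, counting error only. Per kb of its length the remainder had 12.5 CPM in mutant replicate 1 and 12.1 CPM in control replicate 1, and 38.1 to 71.3 CPM in the 6 high-rRNA libraries. Another gene, CG12535, covers part of the Myc exons on the opposite strand, but it had only 139 to 744 counts per library. Whether strand was used in counting is not given in the sources used here.

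**Figure D2:**
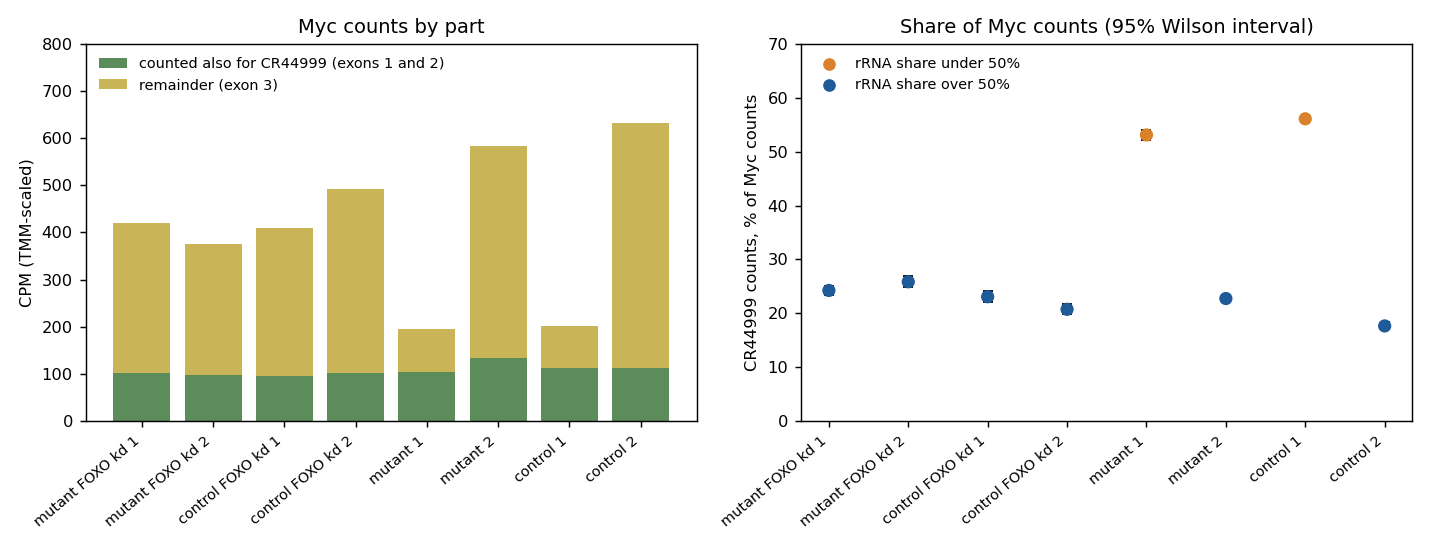
Left, Myc level per library in CPM, split into counts also assigned to CR44999 (exons 1 and 2) and the remainder (mostly exon 3). Right, CR44999 counts as a percentage of Myc counts with 95% Wilson intervals, at 53.1% and 56.1% in the orange low-rRNA libraries and 17.6% to 25.8% in the blue high-rRNA ones.

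The question whether the supply of ribosomes follows the mtDNA was put to the 8 genes first without FOXO knockdown. With 1 mean per group, 0 of 8 were called between mutant and control mtDNA, where 0 of 11561 genes were called (0%), 233 had an unadjusted p under 0.05 and DESeq2 called 18 genes (0.156%), none of the 8. With the class term 0 of 8 were called as well, against 241 of all genes (2.08%). None was called for this comparison in any other fit run. In simulated data for this comparison 200 genes were changed by 1.5 on the log2 scale, up or down. The fit with 1 mean per group called none of them, so its count of 0 sets no limit on the differences. The fit with the class term called 149 of them and 6 unchanged genes. The simulated counts were built with the class differences and spread of the class-term fit, so they could not rank the 2 fits. Smaller changes were not simulated.

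The estimates with the class term put bounds on what these libraries could show. Myc had a log2 difference of -0.08, with a 95% interval of -0.35 to 0.19 (edgeR adjusted p 0.995). Mutant lay below control within each class, 194.8 against 200.8 CPM and 583.7 against 632.9 CPM, a pattern that 27.4% of all genes had. Without the CR44999 counts the Myc difference was also -0.08 (95% interval -0.37 to 0.21). Tif-IA stood at -0.20 (-0.63 to 0.22), with edgeR adjusted p of 0.926. The box C/D proteins had 0.21 for Fib (-0.30 to 0.72), 0.13 for Nop56 (-0.27 to 0.54) and 0.06 for nop5 (-0.30 to 0.42). Nop60B had 0.13 (-0.20 to 0.45) and Ns2 had 0.19 (-0.21 to 0.59), both with mutant above control within each class, which held for 29.5% of all genes. Ns1 had 0.06 (-0.44 to 0.57). With 1 mean per group the 8 estimates ranged from -0.18 to 0.34 with wider intervals, the lowest bound at -1.59 and the highest at 1.95. The median of the 8 was 0.09 with the class term, against 0.01 over all genes tested.

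Under labelled FOXO knockdown all 4 libraries were high-rRNA libraries. Again 0 of 8 genes were called with 1 mean per group, as were 0 of 11561 (0%, with 264 at an unadjusted p under 0.05 and 5, 0.0432%, called by DESeq2, none of the 8), and 0 of 8 with the class term, against 19 of all genes (0.164%). The largest differences of the 8 were those of Tif-IA and Nop56. Tif-IA had 15.9 ± 3.33 CPM with mutant mtDNA and 24.0 ± 3.75 CPM with control mtDNA (SD, n = 2 each), a log2 difference of -0.59 with the class term (95% interval -1.03 to -0.15, unadjusted p 0.0136, edgeR adjusted p 0.434). Nop56 had 9.97 ± 0.319 CPM and 13.5 ± 1.71 CPM in mutant and control libraries (SD, n = 2 each), a difference of -0.44 (-0.86 to -0.01, edgeR adjusted p 0.576). Neither passed the threshold over all genes. For both genes the 2 mutant libraries lay below the 2 control libraries, an order found for 2 of the 8 genes and 17.5% of all genes tested.

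For Myc the difference under labelled knockdown was -0.18 (95% interval -0.45 to 0.09, edgeR adjusted p 0.692), and for Fib it was -0.23 (-0.79 to 0.33, edgeR adjusted p 0.818). nop5, Nop60B, Ns1 and Ns2 lay between -0.01 and 0.15, with interval bounds from -0.41 to 0.69. The median of the 8 was -0.10, against 0.03 over all genes. Whether the mtDNA difference itself changed with the knockdown was tested as an interaction, and 0 of 8 genes were called with 1 mean per group (0% of all genes, 215 at an unadjusted p under 0.05, 0 by DESeq2) or with the class term (0.51% of all genes). Nop56 had the largest interaction value of the 8 with the class term, -0.57 (-1.16 to 0.02, edgeR adjusted p 0.564). The 8 values ranged from -0.57 to 0.09.

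**Figure D3:**
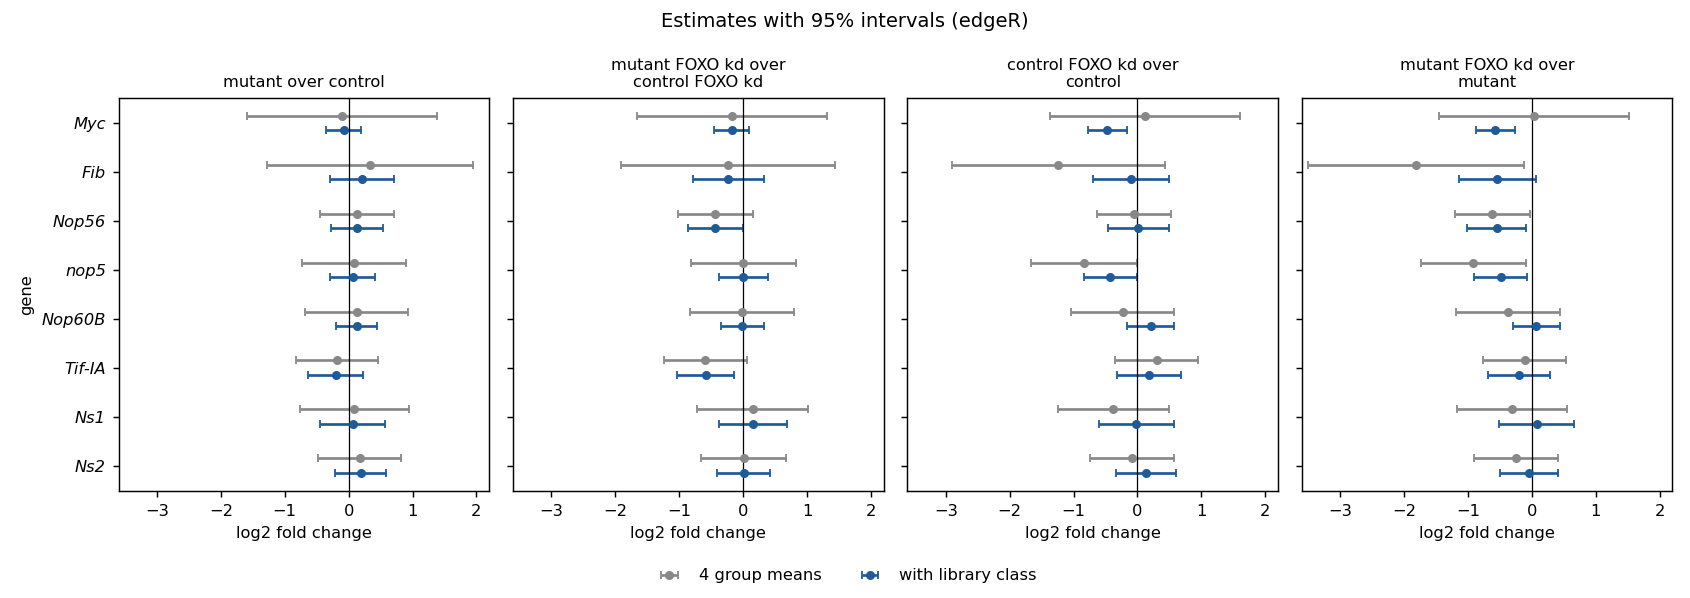
Log2 fold changes of the 8 genes with 95% intervals in 4 comparisons (mutant over control, knockdown over none), in grey from the edgeR fit with 1 mean per group and in blue from the fit with the library class, with "FOXO kd" for labelled FOXO knockdown. Without knockdown every interval of mutant over control holds 0, under FOXO kd the blue ones of Tif-IA and Nop56 do not, and for Myc under FOXO knockdown the blue estimates are -0.47 and -0.57 while the grey ones are 0.11 and 0.03.

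Labelled FOXO knockdown was compared with no knockdown in each mtDNA background. All knockdown libraries are high-rRNA libraries, so the fit with 1 mean per group sets them against a mixture of both classes. In that fit 0 of 8 genes were called in either background, as were 0 of 11561 genes (0%), with 622 genes at an unadjusted p under 0.05 in the control and 643 in the mutant background. DESeq2 called 24 and 59 genes (0.208% and 0.51%), none of the 8. With the class term 0 of 8 were called in either background, against 0.571% of all genes with control and 1.9% with mutant mtDNA.

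Myc was the gene of the 8 that passed the threshold once the classes were kept apart by selection. In the 6 high-rRNA libraries alone, where the groups without knockdown have 1 library each that is assumed to vary like the others, Myc fell by 0.48 on the log2 scale with labelled knockdown in the control background (95% interval -0.72 to -0.24, edgeR adjusted p 0.0252). In the mutant background it fell by 0.56 (-0.80 to -0.32, edgeR adjusted p 0.00416). Myc was the 1 gene of the 8 called lower in each background, against 0.805% and 1.99% of the 11803 genes tested in those libraries. The 4 knockdown libraries had 375.9 to 491.8 CPM and the 2 without knockdown 583.7 and 632.9 CPM. Markers of other cells were also called in these libraries. Of 5 visceral muscle markers 3 were higher with knockdown in the control background, against 1.19% of all genes called higher, and 3 were lower in the mutant background. Of 6 enterocyte markers 1 was lower in the control and 1 higher in the mutant background, where 1.3% of all genes were higher. Of 6 enteroendocrine markers 1 was higher in each background, and 0 of 5 progenitor markers were called in either. The part of these cells in the Myc difference was not tested.

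The fit with the class term gave Myc close values that were not called, -0.47 with control mtDNA (95% interval -0.77 to -0.17, edgeR adjusted p 0.241) and -0.57 with mutant mtDNA (-0.87 to -0.27, edgeR adjusted p 0.0652). With 1 mean per group the values were 0.11 and 0.03 (edgeR adjusted p 0.966 and 0.991), so that the direction for Myc depended on how the class was handled. Over all alternatives the adjusted p of Myc ranged from 0.0126 to 1 with control and from 0.00166 to 1 with mutant mtDNA. Counted without CR44999, Myc fell by 0.66 with the class term in the mutant background (-0.99 to -0.33, edgeR adjusted p 0.0485) and had -0.50 in the control background (edgeR adjusted p 0.244). In the 6 high-rRNA libraries CR44999 itself fell by 0.42 with labelled knockdown in the mutant background (-0.65 to -0.19, edgeR adjusted p 0.0357) and had -0.18 in the control background (edgeR adjusted p 0.656).

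Of the other 7 genes none was called for labelled knockdown in any fit run. nop5 had -0.43 with control mtDNA (95% interval -0.84 to -0.01, edgeR adjusted p 0.503) and -0.49 with mutant mtDNA (-0.90 to -0.07, edgeR adjusted p 0.353). Fib had -0.10 (-0.70 to 0.50) and -0.54 (-1.14 to 0.06) in the control and mutant backgrounds. Like Myc, both had all 4 knockdown libraries below the 2 high-rRNA libraries without knockdown, which held for 3 of the 8 genes and 8.9% of all genes. Nop60B had all 4 above, at 17.8 to 18.8 CPM against 17.4 and 16.0 CPM, an order found in 7.66% of all genes. Nop56 had 0.01 with control mtDNA (-0.46 to 0.49, edgeR adjusted p 0.99) and -0.55 with mutant mtDNA (-1.01 to -0.09, edgeR adjusted p 0.332). Nop60B, Tif-IA, Ns1 and Ns2 lay between -0.20 and 0.20 over both backgrounds.

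Across the 8 libraries, after the class means were taken out, Myc moved most like nop5 among the 8 genes (Pearson's r 0.93) and least like Nop60B (r -0.82). Fib and nop5 had an r of 0.80, and Nop56 and Tif-IA an r of 0.65. These describe 8 libraries that share the knockdown and mtDNA groups, and no test was made. Of 11553 genes outside the 8, those closest to Myc were CG13004 (r 0.99), CG46306 (0.99), morgue (0.98), CG46315 (0.98) and CG12106 (0.97). The mean of the 7 others was followed most closely by RpL26, a protein of the large ribosomal subunit (r 0.96), CCT5, a subunit of the cytosolic chaperonin (0.96), CR44368 (0.95), and CG33671 and CG33672 (0.95 each, with identical values).

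Genes around the 8 in the pathway were followed in the same 5 comparisons. Of all genes tested, 0% were called with 1 mean per group and 0.164% to 2.08% with the class term. At these shares 0 calls in a short list says little. The 12 partners and regulators of Myc tested had 0 calls in any of the 5 comparisons in either fit. Their median log2 difference between mutant and control mtDNA was 0.01 with the class term and ranged from -0.34 to 0.25. The lowest was brat, a translational repressor known to lower Myc in fly neural progenitors, at -0.34 (95% interval -0.63 to -0.06, edgeR adjusted p 0.28). The 11 subunits and cofactors of RNA polymerase I also had 0 calls, with a median of 0.22 for mutant against control mtDNA and -0.06 under labelled knockdown. RpI1, the largest subunit of the enzyme, had 17.4 and 34.01 CPM in mutant and 18.0 and 23.8 CPM in control libraries, and 25.5 and 24.0 against 31.7 and 28.9 CPM in the mutant and control libraries labelled knockdown. Its differences, 0.22 (-0.13 to 0.58) and -0.29 (-0.65 to 0.07), did not pass the threshold. Other proteins of the box C/D and box H/ACA particles (5 tested of 6 listed), of 40S precursor processing (16 of 26) and of the nucleolus (2 of 3) had 0 calls in any comparison in either fit. The rest of these lists could not be matched to the count table and was not tested.

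Of 29 genes listed for 60S precursor assembly, 17 could be matched to the count table and were tested. With the class term 1 of the 17 was called higher in mutant against control mtDNA, where 1.44% of all genes were higher. The same gene was the 1 called lower with labelled knockdown and mutant mtDNA, where 1.14% of all genes were lower. Non1, the fly homologue of the yeast 60S assembly GTPase Nog1, had 145.7 and 140.3 CPM with mutant mtDNA and labelled knockdown, 136.0 and 161.1 CPM with control mtDNA and the knockdown, 310.0 and 276.0 CPM with mutant mtDNA, and 228.7 and 140.5 CPM with control mtDNA. Without knockdown both mutant libraries lay above both control libraries, an order found for 8.92% of all genes tested. With the class term Non1 rose by 0.70 in mutant against control mtDNA (95% interval 0.40 to 1.01, edgeR adjusted p 0.0226), and fell by 0.82 with labelled knockdown in the mutant background (-1.15 to -0.49, edgeR adjusted p 0.016). With 1 mean per group it was not called (0.67 and -1.03, edgeR adjusted p 1 and 0.778). Its interaction value was -0.76 with the class term (edgeR adjusted p 0.147). In the 6 high-rRNA libraries, which leave 1 mutant and 1 control library without knockdown, that value was -1.04.

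Genes of ribosomal proteins and of small nucleolar RNAs can be set beside these genes. With the class term, 5 of 83 cytosolic ribosomal protein genes tested were higher and 0 lower in mutant than in control mtDNA, with a median of 0.24 and 75 of 83 positive, where 1.44% of all genes were higher and 0.64% lower. Under labelled knockdown 0 were higher and 3 lower, with a median of -0.38 and 0 of 83 positive, where 0.0519% of all genes were lower. In the 6 high-rRNA libraries the same comparison had 32 of 83 lower, against 0.779% of all genes. Mutant against control mtDNA without knockdown, with 1 library each there, had a median of 0.27. For knockdown against none with the class term, 0 of 83 were called with control mtDNA, where 0.571% of all genes were called. With mutant mtDNA 29 were lower, where 1.14% of all genes were lower. In the 6 high-rRNA libraries, with 1 library without knockdown per background, the medians were 0.15 with control and -0.54 with mutant mtDNA. For mutant against control mtDNA the class-term medians of the 8 genes were 0.09 without and -0.10 with labelled knockdown. For knockdown against none they were -0.0024 with control and -0.34 with mutant mtDNA. None of the ribosomal protein genes was called with 1 mean per group. Of 75 mitochondrial ribosomal protein genes 0 were called with the class term in mutant against control mtDNA, without or with labelled knockdown. Their medians were 0.05 and -0.09. Of 183 small nucleolar RNA genes tested, 8 were higher and 0 lower in mutant against control mtDNA with the class term, many of them lying inside other genes or in families whose reads may be shared.

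**Figure D4:**
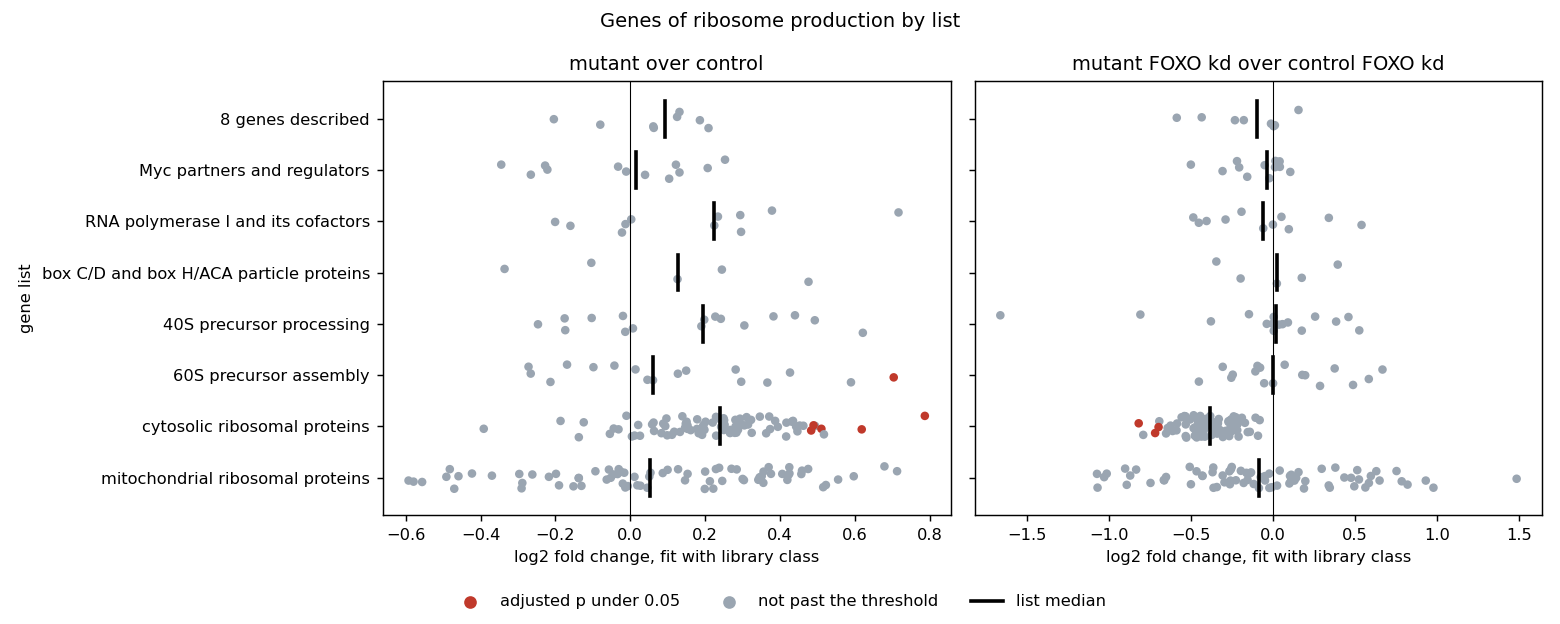
Log2 fold changes with the library class term for mutant over control mtDNA (left) and the same under labelled FOXO knockdown (right, other scale), 1 point per gene tested, grouped by list, with the list median as a black line and called genes in red. The medians of the 8 genes are 0.09 and -0.10, and those of the cytosolic ribosomal proteins 0.24 and -0.38.

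Markers of stem and progenitor cells and of other gut cells moved with some of these comparisons. The summed level of 5 progenitor markers was 62.1 and 47.8 CPM with mutant mtDNA and 106.0 and 71.1 CPM with control mtDNA. With the class term 2 of the 5, Dl and Sox100B, fell (-0.99 and -0.90, edgeR adjusted p 0.0148 and 0.0341), where 0.64% of all genes were lower. The 6 enterocyte markers summed to 7220 and 2839 CPM with mutant and 4959 and 2273 CPM with control mtDNA, and 1 was called higher, where 1.44% of all genes were higher. Of the 6 enteroendocrine markers, which summed to 63.4 and 82.3 CPM with mutant and 75.5 and 98.4 CPM with control mtDNA, 1 was called higher. Their median with the class term was -0.37, with 2 of 6 positive. The 5 visceral muscle markers, with no call in the class-term fit, summed to 681.9 and 467.6 CPM with mutant and 705.9 and 183.9 CPM with control mtDNA. In the 6 high-rRNA libraries, which leave 1 mutant and 1 control library, all 5 muscle markers were called higher, by 1.03 to 1.44 on the log2 scale, against 1.33% of all genes. In those libraries 1 of the 5 progenitor and 1 of the 6 enterocyte markers were called lower, against 0.746% of all genes. In the libraries labelled knockdown the sums for mutant and control mtDNA lay closer, at 69.8 and 74.7 against 78.6 and 84.6 CPM for progenitors and 285.3 and 265.8 against 271.8 and 283.6 CPM for muscle. The part of these cell types in the levels of the 8 genes was not tested.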

How the data were processed

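The authors deposited 1 table of raw counts, whole numbers of reads per gene, for 8 libraries sequenced on the HiSeq platform per the labels. The submitters' processing notes name FastQC, cutadapt, HISAT2, featureCounts and limma without versions or roles. The genome build, annotation and use of strand are not given in the sources used here, so no coordinates are printed. Exon lengths and overlaps came from the BDGP6.54 annotation, which holds 17331 of the 17473 gene identifiers. Groups came from the labels.

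Counts were analysed with edgeR 4.0.16 (filterByExpr, TMM, glmQLFit, glmQLFTest, two-sided) in R 4.3.3 over all 8 libraries, with Benjamini-Hochberg adjustment over 11561 genes and a threshold of 0.05. The class term divides libraries at an rRNA share of 50%. DESeq2 1.42.0 was an alternative. Likeness used log2 CPM, to which edgeR added a prior count of 3. TMM factors were 0.629 to 3.194. A count of 0 allows up to 3 counts, 0.0763 to 0.142 CPM on total counts. Intervals of shares and floors cover counting error only. The members and the gene lists were chosen with earlier results of these data known. Named beside the 8 genes are, per list, the genes called with the largest changes, or else those of smallest p, of which a selection is printed. Fits were tested on data simulated with the class differences and spread of the class-term fit. There the fit with group means recovered none of the 200 changed genes and the one with the class term 149. Other steps ran in pandas 2.3.3 and matplotlib 3.10.9 on Python 3.11.15.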

Additional observations from a re-analysis of the deposited data

How the results depend on the processing

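Counts are given for mutant against control mtDNA, the same under labelled FOXO knockdown, knockdown against none with control mtDNA, the same with mutant mtDNA, and the interaction. With 1 mean per group edgeR called 0 genes in all 5. It called 241, 19, 66, 220 and 59 with the library class term. With that term, RLE scaling gave 239, 21, 65, 229 and 64, total counts as library size gave 94, 4, 33, 101 and 0, no filter gave 546, 172, 278, 446 and 271, and rRNA genes removed gave 260, 29, 80, 246 and 87. The 6 high-rRNA libraries gave 245, 158, 236, 389 and 188, and DESeq2 gave 18, 5, 24, 59 and 0. With 1 mean per group and no filter, the middle 3 comparisons had 3, 3 and 16 calls. The replicate block gave 0 calls in all 5 with group means, and 222, 30, 60, 129 and 53 with the class term. Same-numbered libraries deviated together for mutant and control alone (r 0.69), which is also the class split, and the other pairs had r of -0.037 to 0.002, so the numbers were not taken as pairs.

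Of the 8 genes, the 1 called in any of these fits was Myc. It was called for knockdown in both backgrounds with the class term and no filter and in the 6 high-rRNA libraries, and with mutant mtDNA also with the class term and rRNA genes removed. With control mtDNA its value, 0.11 with group means, was -0.47 with the class term, -0.45 with the replicate block added, -0.83 on total counts, and, with the class term, -0.47 with RLE, -0.71 on total counts, -0.49 with no filter and -0.46 without rRNA genes. In the 6 libraries it was -0.48. With mutant mtDNA the 0.03 of group means became -0.57, -0.54, -0.80, -0.58, -0.70, -0.58, -0.56 and -0.56 under the same changes, and -0.014 with group means and no filter. Counted without CR44999, a choice made after the data were seen, the class-term values were -0.50 and -0.66. The direction of Myc thus changed with the class term, and with group means on total counts, which moved the median of all genes down, and, with mutant mtDNA, with no filter. The cause was not tested.

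For mutant against control mtDNA without knockdown, total counts made 5 values negative, with -0.30 for Nop56, -0.25 for nop5, -0.24 for Nop60B, -0.22 for Ns1 and -0.26 for Ns2, where the median of all genes moved to -0.33. With the class term as well, 6 were negative, with -0.054 for Fib, -0.12 for Nop56, -0.19 for nop5, -0.13 for Nop60B, -0.19 for Ns1 and -0.064 for Ns2, and a median of all genes of -0.25. For knockdown against none that median was -1.60 with control and -1.30 with mutant mtDNA on total counts. The 6 high-rRNA libraries turned Fib to -0.10, nop5 to -0.042, Ns1 to -0.091 and Tif-IA to 0.037.

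Without 1 library at a time, group means called 0 to 1, 0 to 1, 0 to 3, 0 to 4 and 0 genes, and the class term 250 to 470, 8 to 680, 65 to 623, 119 to 430 and 45 to 510. Of the 8 genes, 0 to 1 was called for knockdown in each background with the class term, Myc each time. For mutant against control mtDNA, leaving out 1 library with or without the class term moved Myc over -1.07 to 0.94, Fib over -1.10 to 1.36, Nop56 over -0.048 to 0.30, nop5 over -0.41 to 0.47, Nop60B over -0.33 to 0.59, Tif-IA over -0.47 to 0.052, Ns1 over -0.38 to 0.44 and Ns2 over -0.093 to 0.50. For knockdown, Myc ran over -0.63 to 1.16 with control and -0.66 to 1.00 with mutant mtDNA, and Fib over -1.81 to 0.27 with control mtDNA. For mutant against control mtDNA the widest ranges, those of Myc and Fib, came from group means without mutant or control replicate 1 or 2, which leave 1 library of a group. For knockdown the lower ends of Myc, -0.63 and -0.66, and the upper end of Fib, 0.27, came from the class term. The opposite ends came from group means. Fib, at 67 to 157 counts in the high-rRNA libraries, is the gene that depth limits most.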
